A study of Mus musculus with 4 samples.

Results

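Ccl6, Ccl9 and Cxcl16 are 3 chemokine ligand genes among the 397 genes of a targeted immune panel that was read in single cells of the mouse brain. The 3 genes were taken by their symbols, and their reads were followed in 13820 of 21172 cells, those with 40 or more genes and at most 59300 reads. The cells came from the right hemisphere, without cerebellum or olfactory bulb, of 4 male mice aged 9 months, with 1 library per mouse. All 4 mice carried the 5XFAD transgenes, which are driven in neurons by a Thy1 promoter and lead to amyloid plaques, so every mouse was an amyloid model and none was free of it. In 2 mice (Abi3-/- 1 and 2, without Abi3) the gene was deleted throughout the body, and the other 2 (Abi3+/+ 1 and 2, with Abi3) kept it. Paired values follow that order of mice. Abi3 encodes a cytoskeletal adaptor found mostly in microglia. It was not on the panel, so the genotypes rest on the labels.

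Chemokines are small secreted proteins that direct the movement of leukocytes through receptors on their surface. Ccl6 and Ccl9 encode CC chemokines of myeloid cells that signal through Ccr1. Cxcl16 encodes a chemokine made as a transmembrane protein, which can be shed from the cell, and its receptor is Cxcr6, a gene of tissue-resident and effector T cells. Microglia, the resident macrophages of the brain, change around amyloid plaques toward a state known as disease-associated microglia, in which Apoe (a lipid carrier) and Cst7 (cystatin F, an inhibitor of lysosomal proteases) are both raised.

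In the RefSeq annotation of GRCm38.p6, the assembly called mm10 in the submitters' processing notes, the 3 ligand genes lie on chromosome 11. Ccl9 (gene ID 20308) spans chr11:83572917-83578636 and Ccl6 (20305) spans chr11:83587886-83593087, with 9249 bases and no whole gene between them. Cxcl16 (66102) spans chr11:70454389-70459984 and is thus 13.1 Mb from Ccl9. Abi3 is also on chromosome 11, 12.2 Mb from Ccl6 and 25.4 Mb from Cxcl16. All 3 are protein-coding genes. The promoters of the neighbours Ccl6 and Ccl9 are shown because these genes were found together in the same cells, as described further on. Each is the 250 bases before the start of the gene from RefSeq, 5′ to 3′ on the minus strand, at chr11:83593088-83593337 for Ccl6 and chr11:83578637-83578886 for Ccl9. Capitals mark CACTTCC, the reverse complement of GGAAGTG, a motif built on the GGAA core that ETS factors such as PU.1, a master regulator of myeloid cells, are known to bind.

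Ccl6: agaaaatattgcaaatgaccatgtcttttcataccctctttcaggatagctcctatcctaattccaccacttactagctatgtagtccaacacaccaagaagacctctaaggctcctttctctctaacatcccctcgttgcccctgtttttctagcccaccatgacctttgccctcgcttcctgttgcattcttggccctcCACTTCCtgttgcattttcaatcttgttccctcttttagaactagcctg

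Ccl9: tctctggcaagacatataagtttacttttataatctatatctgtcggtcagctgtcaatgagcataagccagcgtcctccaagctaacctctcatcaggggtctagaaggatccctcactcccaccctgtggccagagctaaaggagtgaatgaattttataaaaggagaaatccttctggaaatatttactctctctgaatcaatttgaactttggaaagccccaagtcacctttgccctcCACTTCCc

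GGAAGTG was chosen after these sequences had been looked at and was searched on both strands. It lay 49 to 43 bases before the start of Ccl6 and 8 to 2 bases before that of Ccl9. Of 32851 promoters cut to the same 250 bases, 8.55% held it on either strand. The motif TATAAA was found in the Ccl9 promoter only and was present in 12.4% of all promoters. TGACTCA, the AP-1 motif, was found in neither and was present in 4.46% of all promoters. The longest run that both promoters shared was 13 bases and took in the marked CACTTCC. The shared run and the shared motif are thus not separate observations. Among annotated transcripts of Ccl6 and Ccl9, the longest shared run was 25 bases. A long noncoding RNA, E230016K23Rik, is annotated across Ccl6, and its part in the Ccl6 reads was not tested.

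The 4 tables held 87117727 to 150756771 reads in 3405 to 6476 cells. Pairs of libraries shared 17 to 42 cell barcodes. Cells were sorted into classes by reads of marker genes. Trem2-positive cells, with a read of this microglial lipid receptor and outside the gates of other types, made up 93.4% to 96.3% of the kept cells of a mouse, 13060 in all. Of 6 microglial markers, the complement genes C1qa and C1qb were read in 99.7% to 99.9% and in 97.8% to 99.8% of them by mouse, Adgre1 in 81.03% to 87.2% and Entpd1 in 81.4% to 90.3%. Cx3cr1 was read in 76.2% in Abi3+/+ 2 and in 88.8% to 94.4% in the other 3 mice. Selplg was read in 97.9% to 99.2%, but also in 82.4% to 94.4% of T cells. The neutrophil gene S100a8 was read in 0.321% and 6.13% of Trem2-positive cells without Abi3 and in 0.875% and 2.07% with Abi3. S100a9, Mmp9, Cxcr2, Clec4d and Trem1, also of the neutrophil gate, were each read in at most 0.213% of them. Trem2-positive cells were split into 3363 cells with both Apoe and Cst7 (Apoe+Cst7+), 2774 with Apoe alone (Apoe+Cst7-), 1129 with Cst7 alone (Apoe-Cst7+) and 5794 with neither (Apoe-Cst7-). The other classes were 97 macrophages, 117 neutrophils, 314 T cells and 53 B cells, and 179 cells had no Trem2 read and were in no gate. Neutrophils were few in Abi3-/- 1 (5 cells), Abi3+/+ 1 (6 cells) and Abi3+/+ 2 (19 cells), against 87 in Abi3-/- 2. Depth differed between classes. The median was 27673 to 31908 reads per Apoe+Cst7+ cell and 16985 to 20988 reads per Apoe-Cst7- cell. A cell with a read of Ccl6, Ccl9 or Cxcl16 had at least 9 reads of it.

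Ccl6 was read most often in neutrophils and, among Trem2-positive cells, in those with Apoe and Cst7. It was read in 95.7% of neutrophils, in 70.7% of Apoe+Cst7+ cells and in 1.27% of T cells, and in none of the 53 B cells, a count of 0 that allows up to 5.66%. In neutrophils the share was 100% and 95.4% with Abi3 deleted and 100% and 94.7% with Abi3 kept. Their level was 28654 and 27456 CPM (the reads of the gene scaled by all reads of the class in that mouse, on the usual CPM scale) in Abi3-/- and 16987 and 31764 CPM in Abi3+/+. All 4 values lay above every value of the Trem2-positive cells, which were 3156 and 4125 CPM without Abi3 and 3972 and 4415 CPM with Abi3. Of 186 panel genes with a share of 5% or more, as the mean over both classes, 72.6% likewise did not overlap. The share in neutrophils exceeded that in Trem2-positive cells by 37.96 ± 5.87 percentage points (SD, n = 4 mice, higher in 4 of 4). The exact 2-sided sign-flip test over mice gave p = 0.125, the smallest that 4 mice allow (adjusted p = 0.170 over 30 comparisons of shares). On reads summed per mouse and class, the log2 fold change was 2.44 (SE 1.18, adjusted p = 0.110, the quasi-likelihood F-test of edgeR, Benjamini-Hochberg adjusted), beside a median of -3.40 over the 328 genes tested, of which 45.4% passed the threshold of 0.05. The call was made by DESeq2 (3.29, adjusted p = 0.00531) and in neutrophils without a Trem2 read (2.43, adjusted p = 0.00556). Over all alternatives, 1 to 209 genes passed in neutrophils. Without the cell filter the fold change was smaller and did not pass (1.41, adjusted p = 0.324).

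Among Trem2-positive cells, Ccl6 was higher in Apoe+Cst7+ than in Apoe-Cst7- cells. It was read in 64.6% and 71.6% of Apoe+Cst7+ cells without Abi3 and in 72.7% and 73.7% with Abi3. Shares in Apoe-Cst7- cells stood at 46.8% and 54.8% without Abi3, and at 56.4% and 58.5% with Abi3. The difference was 16.5 ± 1.1 percentage points (SD, n = 4, higher in 4 of 4, exact sign-flip p = 0.125, adjusted p = 0.170). The level was 4586 and 5082 CPM against 1882 and 2603 CPM in Abi3-/- mice, and 6523 and 6445 CPM against 2739 and 3327 CPM with Abi3. No Apoe+Cst7+ value overlapped an Apoe-Cst7- value, which was so for the CPM of 62.3% of 175 panel genes. The log2 fold change was 1.69 (SE 0.13, adjusted p = 1.41e-06, edgeR). In this comparison 51% of the 292 genes tested passed the threshold, so a call alone was common.

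The size of these fold changes depended on the scaling. With TMM, which sets the typical gene to no change, the median of all genes was -0.03, and with library size alone it was -0.60. Ccl6 was 1.12 with library size alone (SE 0.12, adjusted p = 8.21e-06). It was 1.21 with TMM in cells of 15000 to 25000 reads, a window that narrowed the difference in depth between the classes (SE 0.15, adjusted p = 9.49e-05). This compares with 1.69 with TMM over all depths. In that window the shares differed by 8.7 ± 4.4 percentage points (SD, n = 4, higher in 4 of 4, exact sign-flip p = 0.125). Ccl6 was thus higher in Apoe+Cst7+ cells within this window too, with a smaller fold change and a smaller difference in shares. The median depth there was still greater in Apoe+Cst7+ than in Apoe-Cst7- cells. It was 21464 against 19558 reads in Abi3-/- 1 and 20391.5 against 18819.5 in Abi3-/- 2. In Abi3+/+ 1 and 2 it was 20410 against 19103 and 21354 against 19958 reads. The part of depth in the difference was not tested.

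Over all depths, the level of Ccl6 in cells with Cst7 alone overlapped that in Apoe+Cst7+ cells. In cells with Cst7 alone it was 4857 and 6333 CPM without Abi3 and 5240 and 5802 CPM with Abi3. In cells with Apoe alone it was 1875 and 2643 CPM in Abi3-/- and 3198 and 3748 CPM in Abi3+/+. Over Apoe-Cst7- cells, the log2 ratio of CPM was 1.097 ± 0.271 (SD, n = 4) with Cst7 alone and 0.10 ± 0.11 with Apoe alone. The share with Cst7 alone exceeded that with Apoe alone by 6.8 ± 5.8 percentage points (SD, n = 4, higher in 4 of 4, exact sign-flip p = 0.125, adjusted p = 0.170). That order was not kept in cells of 15000 to 25000 reads, where Ccl6 was read in 45.5%, 61.8%, 62.99% and 54.2% of cells with Cst7 alone and in 46.8%, 53.98%, 53.7% and 60.1% of cells with Apoe alone, more with Cst7 in 2 of 4 mice. In that window the level with Cst7 alone was 2227, 3981, 4099 and 3512 CPM, against 3327, 4513, 4078 and 7637 CPM in Apoe+Cst7+ cells, a smaller value in 3 of 4 mice. In order of its CPM over all depths, Ccl6 was highest in neutrophils. Apoe+Cst7+ and Apoe-Cst7+ cells followed with overlapping values, as did macrophages, whose range of 3749 to 10359 CPM covered both. Apoe+Cst7- and Apoe-Cst7- cells overlapped below them, and T cells were last among the classes with any read.

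**Figure D1:**
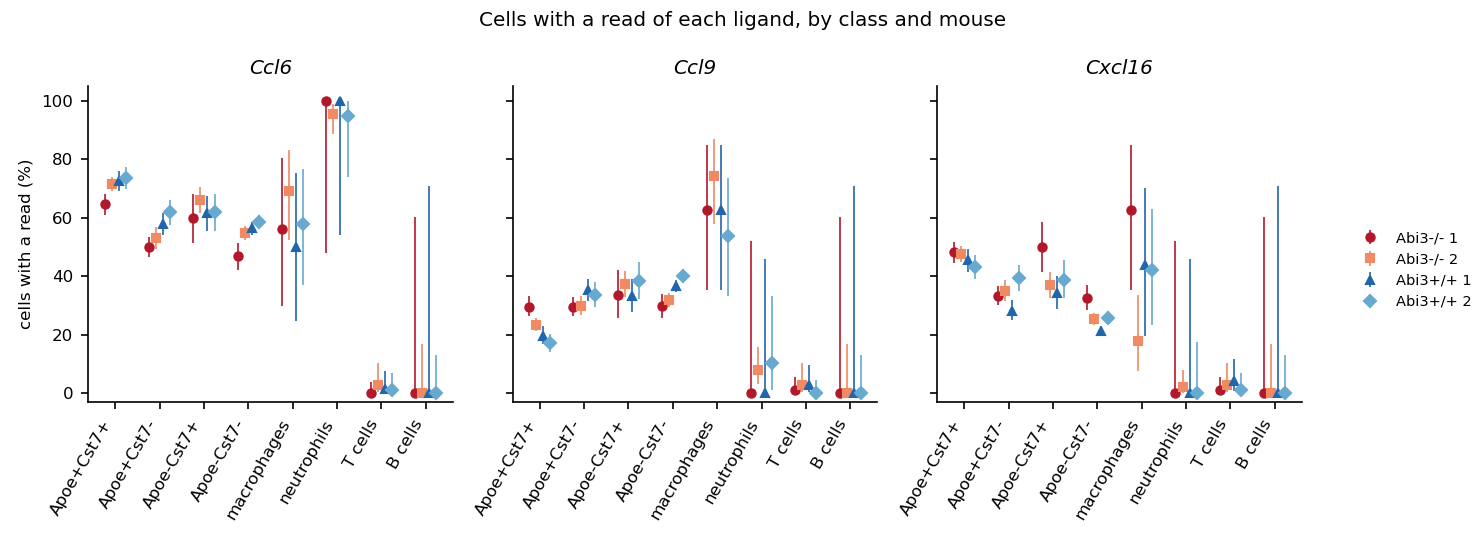
Share of cells with a read of Ccl6, Ccl9 and Cxcl16 (vertical axis, percent) in 8 classes of cells, with 1 point per mouse and exact 95% binomial intervals, which cover counting error only. Ccl6 stands highest in neutrophils (94.7% to 100%), Ccl9 in macrophages (53.8% to 74.4%), and all 3 genes are near 0 in T and B cells.

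Ccl9 had a different distribution from that of its neighbour. It was read most often in macrophages, and in 3 of 4 mice its share was lowest, among Trem2-positive cells, where Apoe and Cst7 were read together. Macrophages, gated by 2 or more of Ccr2, Clec10a, F13a1 and Cd163, had a Ccl9 read in 62.5% and 74.4% of cells without Abi3 and in 62.5% and 53.8% with Abi3. Their level was 8321 and 14087 CPM in Abi3-/- and 8484 and 10483 CPM in Abi3+/+. Trem2-positive cells had 1675 and 1587 CPM in Abi3-/- and 1863 and 2350 CPM in Abi3+/+, and no value overlapped those of the macrophages, as for 61.3% of 212 panel genes. The share in macrophages exceeded that in Trem2-positive cells by 31.6 ± 10.5 percentage points (SD, n = 4, higher in 4 of 4, exact sign-flip p = 0.125, adjusted p = 0.170). The test on summed reads did not call the difference (log2 fold change 1.90, SE 1.65, adjusted p = 0.504, edgeR), while it called 21.6% of the 328 genes, whose median was -0.86. Ccl6 in macrophages did not pass either (0.32, SE 1.11, adjusted p = 0.893). The model behind these values also held neutrophils and T cells, with neutrophil sums of 5 cells in Abi3-/- 1 and 6 in Abi3+/+ 1. The SE thus takes in the spread of those classes and is not the spread of macrophages alone between mice. The 97 macrophages were 16 and 39 cells without Abi3 and 16 and 26 with Abi3. C1qa was read in 23.1% to 53.8% of them and Cx3cr1 in 25% to 31.25%. The name of the class is that of its gate, and whether it held other myeloid cells was not tested. Their median depth by mouse was 30368.5 to 44122.5 reads per cell, against 19793 to 24707 in Trem2-positive cells. The part of depth in the difference in shares was not tested.

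Neutrophils, in which nearly every cell had Ccl6, had a Ccl9 read in 9 of 117 cells (7.69%). Its share was 8.05% in Abi3-/- 2 and 10.5% in Abi3+/+ 2, and the 5 and 6 neutrophils of the other 2 mice had none. On summed reads, Ccl9 in neutrophils did not pass against Trem2-positive cells (-4.00, SE 1.95, adjusted p = 0.111, edgeR). Macrophages exceeded them by 58.7 ± 10.4 percentage points (SD, n = 4, higher in 4 of 4, exact sign-flip p = 0.125, adjusted p = 0.170). Whether reads of one neighbour were counted as the other was not tested.

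In Apoe+Cst7+ cells, Ccl9 was read in 29.7% and 23.4% of cells without Abi3 and in 19.7% and 17.04% with Abi3. In Apoe-Cst7- cells it was read in 29.7% and 31.96% in Abi3-/- and in 36.6% and 40.1% in Abi3+/+. The difference was -0.036 percentage points in Abi3-/- 1 and -8.61, -16.8 and -23.0 in the other 3 mice (mean -12.1 ± 10.0 percentage points, SD, n = 4, exact sign-flip p = 0.125, adjusted p = 0.170). The levels were 1680 and 1115 CPM against 1519 and 1939 CPM in Abi3-/- mice, and 837 and 841 CPM against 2301 and 3087 CPM with Abi3. The log2 fold change was -0.41 (SE 0.22, adjusted p = 0.150, edgeR) and did not pass. It passed with library size alone (-0.97, SE 0.25, adjusted p = 0.00534) and without Abi3-/- 1 (-0.74, adjusted p = 0.0128). Such calls were common. With library size alone the median over the 292 genes was -0.60, and 125 of them were called lower and 48 higher. With each mouse left out in turn, 112 to 141 genes passed. In cells of 15000 to 25000 reads, the share was lower in Apoe+Cst7+ cells in 4 of 4 mice, by 6.98 and 12.8 percentage points in Abi3-/- and by 19.4 and 22.5 percentage points in Abi3+/+ (exact sign-flip p = 0.125). In that window the level was 1955 and 1358 CPM against 1589 and 1947 CPM in Abi3-/-. With Abi3 it was 1144 and 836 CPM against 2126 and 2945 CPM. The level was thus greater in Apoe+Cst7+ cells in Abi3-/- 1 and lower in the other 3 mice.

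Ccl9 had a higher mean level in cells with Apoe or Cst7 alone than in those with both. Cells with Cst7 alone had 2449 and 2442 CPM in Abi3-/- and 1984 and 2849 CPM in Abi3+/+. Cells with Apoe alone had 1616 and 1621 CPM in Abi3-/- and 2055 and 2301 CPM in Abi3+/+. Over Apoe-Cst7- cells, the log2 ratio of CPM was 0.17 ± 0.42 (SD, n = 4) with Cst7 alone, -0.19 ± 0.21 with Apoe alone and -0.997 ± 0.881 with both. The share in Apoe+Cst7+ cells lay below that in cells with Cst7 alone by a mean of 13.2 percentage points (SD 7.2, n = 4, lower in 4 of 4, exact sign-flip p = 0.125, adjusted p = 0.170).

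**Figure D2:**
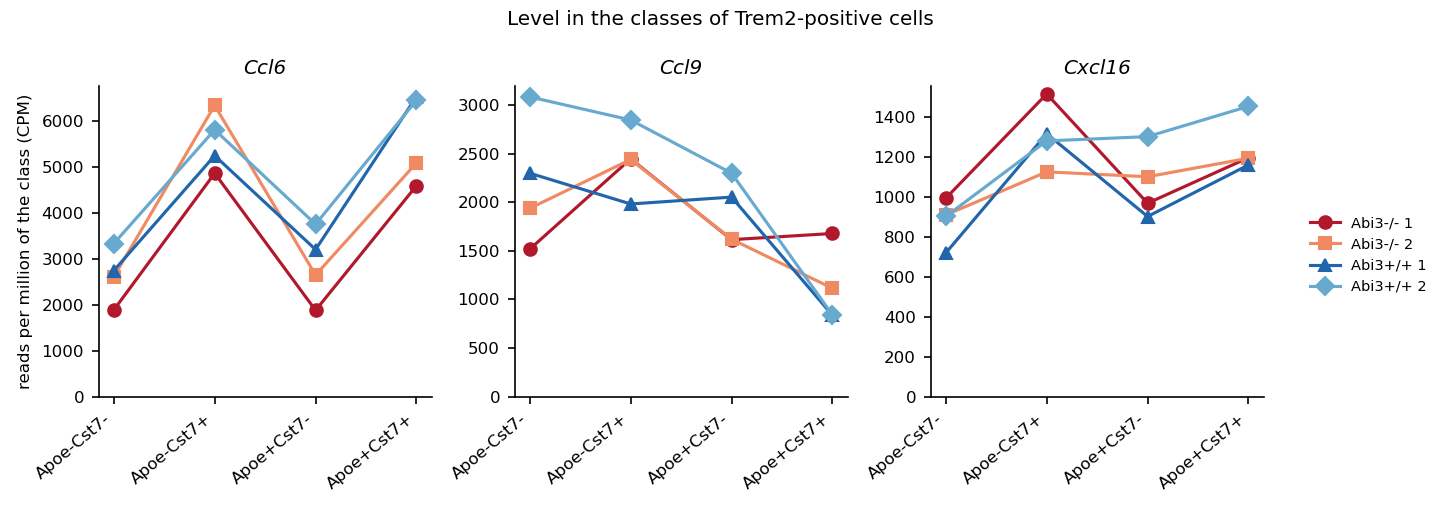
Level of each ligand (vertical axis, CPM of the class in each mouse, on a linear scale from 0) in the 4 classes of Trem2-positive cells, with 1 line per mouse. Ccl6 lies between 4586 and 6523 CPM in both classes with Cst7, and Ccl9 is at 837 and 841 CPM in the Apoe+Cst7+ cells of the Abi3+/+ mice while Abi3-/- 1 is at 1680 CPM.

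Cxcl16 was higher in Apoe+Cst7+ than in Apoe-Cst7- cells. It was read in 48.1% and 47.6% of Apoe+Cst7+ cells without Abi3 and in 45.5% and 43.2% with Abi3. Shares in Apoe-Cst7- cells stood at 32.6% and 25.4% without Abi3, and at 21.2% and 25.9% with Abi3. The classes did not overlap, as for the shares of 47.5% of 162 panel genes, and the difference was 19.8 ± 4.1 percentage points (SD, n = 4, higher in 4 of 4, exact sign-flip p = 0.125, adjusted p = 0.170). The level was 1194 and 1192 CPM against 992 and 908 CPM in Abi3-/- mice, and 1158 and 1451 CPM against 718 and 900 CPM with Abi3. The log2 fold change was 1.09 (SE 0.14, adjusted p = 3.52e-05, edgeR). It was 0.51 (SE 0.12, adjusted p = 0.00301) with library size alone and 0.75 (adjusted p = 0.0008) with TMM in cells of 15000 to 25000 reads. In that window the shares differed by 8.6 ± 5.8 percentage points (SD, n = 4, higher in 4 of 4, exact sign-flip p = 0.125).

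More Apoe+Cst7+ cells had Cxcl16, and its CPM over the class was higher in each mouse, as given above. In the cells that had it, however, it did not make up more of the reads of a cell. Among cells with a read, the median was 20.6, 19.5, 19.3 and 26.2 reads per 10000 in the Apoe+Cst7+ cells of Abi3-/- 1, Abi3-/- 2, Abi3+/+ 1 and Abi3+/+ 2. In Apoe-Cst7- cells it was 26.4, 28.1, 27.7 and 30.1 reads per 10000, a greater value in each mouse. For Ccl6 the same measure was 33.02, 41.3, 46.97 and 51.5 in Apoe+Cst7+ cells against 29.8, 34.5, 36.8 and 42.5 in Apoe-Cst7- cells, so here both the share and the level per positive cell were higher. These medians cover only cells with a read and are per total reads, which were more in Apoe+Cst7+ cells. The part of depth in them was not tested.

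With Cst7 alone Cxcl16 had 1513 and 1123 CPM in Abi3-/- and 1314 and 1278 CPM in Abi3+/+. With Apoe alone it had 967 and 1099 CPM in Abi3-/- and 900 and 1300 CPM in Abi3+/+. Its values in these classes overlapped those of Apoe+Cst7+ cells. Macrophages varied more between mice than any of these classes, with a Cxcl16 read in 62.5% and 17.9% of cells in Abi3-/- and in 43.8% and 42.3% in Abi3+/+, and their level did not differ beyond its error (log2 fold change -0.01, SE 1.31, adjusted p = 1, edgeR). Neutrophils had Cxcl16 in 2 of 117 cells, both in Abi3-/- 2 (2.30% of its neutrophils) and both with a Trem2 read, and it was called lower than in Trem2-positive cells (fitted log2 fold change -7.55, SE 1.81, adjusted p = 0.0097, edgeR). That call was lost without Abi3+/+ 2 (-6.38, adjusted p = 0.0556) and with only the 2 mice that had 10 or more neutrophils (-6.01, adjusted p = 0.214).

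T cells were used as the class for background. A read of Ccl6 was present in 4 of 314 T cells, of Ccl9 in 5 and of Cxcl16 in 7, at a median depth of 15117 to 17450 reads per cell by mouse. In the test against Trem2-positive cells all 3 genes were lower, with 53.4% of the 328 genes called in either direction and a median of -0.39 over all genes. The log2 fold change was -6.64 for Ccl6 (adjusted p = 0.00365), -5.31 for Ccl9 (adjusted p = 0.0387) and -4.76 for Cxcl16 (adjusted p = 0.0185, edgeR). The call of Ccl9 was lost when any 1 of the 4 mice was left out (adjusted p = 0.0631 to 0.116), with library size alone (-4.43, adjusted p = 0.0537) and without the mouse in the model (-3.79, adjusted p = 0.0965). That of Cxcl16 was lost without Abi3-/- 1 (0.0695) or without Abi3+/+ 2 (0.068). These reads were mostly in T cells that also had a read of Trem2. Of the 27 T cells with a Trem2 read, 4 had Ccl6, 4 had Ccl9 and 7 had Cxcl16. Of the 287 T cells without one, 1 had Ccl9 and none had Ccl6 or Cxcl16, a count of 0 that allows up to 1.05%. The same split in neutrophils left Ccl6 where it was, at 14 of 15 cells with a Trem2 read and 98 of 102 without. Ccl9 was in 8 of the 102 neutrophils without Trem2 and Cxcl16 in none. Whether the T cells with a Trem2 read were 2 cells under 1 barcode or carried free RNA was not tested.

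Per class, Ccr1 was read in the largest share of neutrophils and Cxcr6 in the largest share of T cells. Ccr1, the receptor for Ccl6 and Ccl9, was read in 100% and 94.3% of neutrophils without Abi3 and in 83.3% and 89.5% with Abi3. Macrophages had it in 68.8% and 46.2% of cells in Abi3-/- and in 56.2% and 46.2% in Abi3+/+, and T cells had none in 314 cells, which allows a share of up to 0.955%. In neutrophils Ccl6 and its receptor were thus read in the same class, and in macrophages Ccl9 and its receptor were. Trem2-positive cells had Ccr1 in 10.5% and 1.75% of cells in Abi3-/- and in 1.37% and 2.51% in Abi3+/+, which in number were 429 cells, against 109 neutrophils and 50 macrophages. Abi3-/- 1 stood apart from the other 3 mice in each of the 4 Trem2-positive classes, with 8.41% to 17.9% against 0.311% to 5.42%. Cxcr6, the receptor for Cxcl16, was read in 91.6% and 79.4% of T cells in Abi3-/- and in 84.7% and 83.5% in Abi3+/+. It was read in 5 of 13060 Trem2-positive cells and in none of the macrophages and neutrophils. The 179 cells with no Trem2 read and outside every gate had both, with Cxcl16 in 11.9% to 27.8% of cells and Cxcr6 in 3.28% to 11.1% by mouse.

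**Figure D3:**
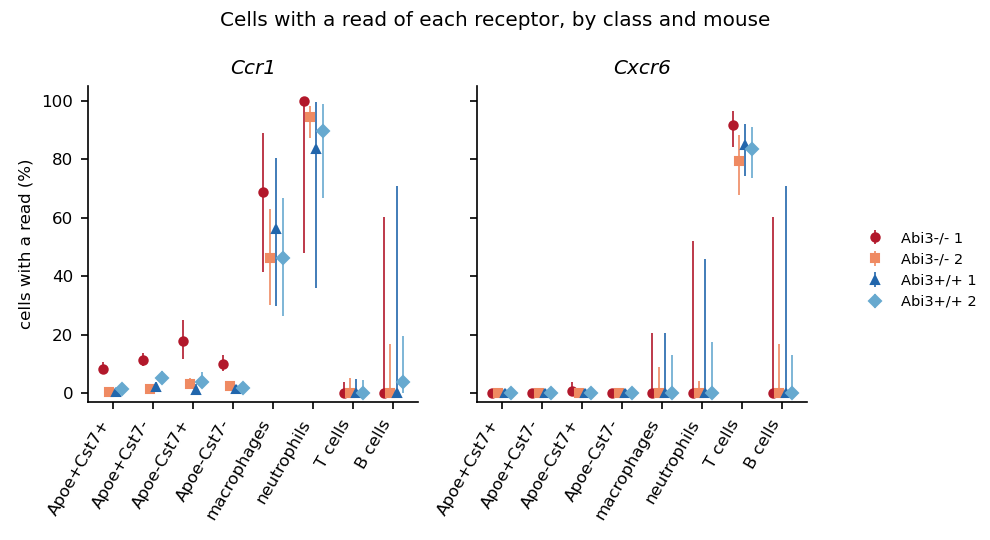
Share of cells with a read of the receptors Ccr1 and Cxcr6 (vertical axis, percent) in 8 classes, with 1 point per mouse and exact 95% binomial intervals for counting error. Ccr1 is read in 83.3% to 100% of neutrophils and Cxcr6 in 79.4% to 91.6% of T cells.

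Other chemokine genes of the panel were counted from a list of 15 ligands and 16 receptors. Between Apoe+Cst7+ and Apoe-Cst7- cells, 8 of the 15 ligands could be tested, of which 3 were higher, 1 was lower and 4 did not pass, a share near the 51% of all genes called in this comparison. The higher ones were Ccl5 (log2 fold change 2.44, adjusted p = 0.00579), Ccl3 (1.15, adjusted p = 0.000168) and Ccl4 (1.04, adjusted p = 6.68e-05, edgeR). Ccl2, the ligand of Ccr2, was lower (-1.59, adjusted p = 0.00193). Of 10 receptors tested, 5 passed, again near the share over all genes. Cxcr4 was higher (5.84, adjusted p = 0.00193), and 4 were lower, among them Ccr1 (-1.45, adjusted p = 0.0147), Ccr2 (-1.77, adjusted p = 0.0307) and Cx3cr1 (-0.71, adjusted p = 2.87e-05), the fractalkine receptor of homeostatic microglia. The median log2 fold change was 1.79 over the ligands tested and -1.36 over the receptors, against -0.03 over all genes. These medians include genes that had wide errors and did not pass. Such ligands were Cxcl2 (5.01, SE 2.85), Cxcl9 (4.95, SE 4.14) and Cxcl13 (3.81, SE 2.52), and Ccr10 (-3.22, SE 5.14) was such a receptor. The 9 genes that passed kept their direction and passed with library size alone as well. Ccr2 is also one of the genes that gate macrophages out of these classes. Against Trem2-positive cells, 8 ligands and 14 receptors of the list could be tested in each of the other classes. In macrophages Ccl17 and Cxcl2 were called higher and Ccl3 and Ccl4 lower, and 3 receptors were higher, with 21.6% of all genes called. Ccr2, a gene of the macrophage gate, was among them, with Ccr9 and Cxcr4. In neutrophils Cxcl2 was called higher and Ccl4, Ccl5 and Cxcl10 lower, and 3 receptors were higher (Ccr1, Cxcr4 and Cxcr2, a gene of the neutrophil gate) and 3 lower, with 45.4% of all genes called. In macrophages and in neutrophils fewer genes passed with any 1 mouse left out, as given below. Fewer still passed with only the mice of 10 or more neutrophils. In T cells Ccl5 and Xcl1 were called higher and Ccl3 and Cxcl2 lower, and 6 receptors were higher, Cxcr6 among them, and 2 lower (Ccr1 and Cx3cr1), with 53.4% of all genes called.

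Genotype was compared over 2 mice against 2. In all Trem2-positive cells together, the log2 fold change of Abi3-/- over Abi3+/+ was 0.003 for Ccl6 (SE 0.21), -0.17 for Ccl9 (SE 0.17) and 0.29 for Cxcl16 (SE 0.17), with adjusted p of 1, 0.937 and 0.829 (edgeR). None of the 328 genes passed (0%), with 23 at an unadjusted p under 0.05, and DESeq2 called 8. The sign for Ccl6 changed with the scaling (-0.20 with library size alone). Within classes, the share with Ccl6 was lower in each Abi3-/- mouse than in either Abi3+/+ mouse in Apoe+Cst7+, Apoe+Cst7- and Apoe-Cst7- cells, by 5.08, 8.31 and 6.60 percentage points (exact permutation p = 0.333 for each, adjusted p = 0.889). Such a lack of overlap was common, at 60% of 160 panel genes in Apoe+Cst7+ cells, 43.9% of 157 in Apoe+Cst7- cells and 46.9% of 145 in Apoe-Cst7- cells, counted over genes read in a mean of 5% to 95% of the cells. In Apoe-Cst7+ cells, where 36.9% of 157 genes did not overlap, the genotypes overlapped for Ccl6 (difference 1.23 percentage points). S100a8, a gene of the neutrophil gate, was read in 5.24% to 7.48% of these 4 classes in Abi3-/- 2. The range was 0% to 2.41% in the other mice, and the part of this in the Ccl6 shares was not tested. In cells of 15000 to 25000 reads they overlapped for Ccl6 in all 4 classes, where 56.5% of 154 genes (Apoe+Cst7+), 35.8% of 148 (Apoe+Cst7-), 33.3% of 147 (Apoe-Cst7+) and 41.4% of 140 (Apoe-Cst7-) did not. Cxcl16 was read in 39.1% and 35.9% of Trem2-positive cells in Abi3-/- and in 27.8% and 32.5% in Abi3+/+, and the groups did not overlap (difference 7.33 percentage points, exact 2-sided permutation p = 0.333, the smallest that 2 against 2 allow, adjusted p = 0.889 over 24 comparisons). Of 157 panel genes, 49.7% did not overlap in these cells. Apoe+Cst7+ cells, in which Cxcl16 was read more often than in Apoe-Cst7- cells in each mouse, made up 31.2% and 31.4% of kept cells without Abi3 and 16.97% and 18.1% with Abi3. Within classes, the share with Cxcl16 did not overlap between genotypes in Apoe+Cst7+ cells (difference 3.53 percentage points, exact permutation p = 0.333, adjusted p = 0.889) and overlapped in the other 3. In cells of 15000 to 25000 reads it overlapped in Apoe+Cst7+ cells, and in Apoe-Cst7- cells it did not, at 26.6% and 27.1% without Abi3 against 19.9% and 23.8% with Abi3. The part of the makeup of classes in the difference over all Trem2-positive cells was not tested.

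Ccl9 was read in 29.9% and 29.4% of all Trem2-positive cells in Abi3-/- and in 33.1% and 34.4% in Abi3+/+, a difference of -4.14 percentage points without overlap. It did not overlap in Apoe+Cst7- cells either, at 29.5% and 30.01% against 35.2% and 33.7% (difference -4.70 percentage points), and it overlapped in Apoe-Cst7+ cells (difference -0.34). In Apoe+Cst7+ cells the difference had the other sign. There the share was 8.12 percentage points higher in Abi3-/- than in Abi3+/+, and in Apoe-Cst7- cells the difference was -7.48 percentage points, with no overlap in either class, nor in cells of 15000 to 25000 reads. The exact permutation p was 0.333 for each of the 4 comparisons without overlap (adjusted p = 0.889), and 43.9% to 60% of panel genes did not overlap in the same cells. In cells of 15000 to 25000 reads the genotypes overlapped in Apoe+Cst7- cells. The log2 ratio of CPM, Apoe+Cst7+ over Apoe-Cst7-, was 0.15 and -0.80 without Abi3 and -1.46 and -1.88 with Abi3. The difference between genotypes in this fold change was 1.17 (SE 0.32, unadjusted p = 0.016, adjusted p = 0.233 by edgeR, which called 0% of 274 genes, with 37 at an unadjusted p under 0.05). DESeq2 called it (1.12, adjusted p = 0.013) as 1 of 27 genes that it called among the same 274. With each mouse left out in turn it was 0.88 to 1.5 and did not pass. For Cxcl16 the difference was -0.53 (adjusted p = 0.363), with a class ratio of 0.27 and 0.39 in Abi3-/- and of 0.69 in both Abi3+/+ mice, and for Ccl6 it was -0.15 (adjusted p = 0.788).

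Within Trem2-positive cells, Ccl9 was read more often in cells with Ccl6 than in cells without it, in each mouse. Ccl9 was read in 34.8% and 34.1% of Ccl6-positive cells in Abi3-/- and in 36.4% and 38.2% of them in Abi3+/+. In cells without Ccl6 it was read in 23.9% and 21.8% in Abi3-/- and in 28.1% and 28.2% in Abi3+/+. The difference was 10.4 ± 1.7 percentage points (SD, n = 4, higher in 4 of 4, exact sign-flip p = 0.125, adjusted p = 0.202 over 21 such comparisons). It was 13.2 ± 1.1 percentage points within Apoe+Cst7+ cells and 11.6 ± 2.3 within Apoe-Cst7- cells, classes between which Ccl6 was called higher and Ccl9 was not called. In cells of 15000 to 25000 reads it was 9.2 ± 1.6 percentage points, higher in 4 of 4 mice.

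For Cxcl16 and Ccl6 the difference was not kept in cells of 15000 to 25000 reads. Cxcl16 was read more often with Ccl6 than without in all Trem2-positive cells, by 5.5 ± 1.4 percentage points (SD, n = 4). In that window the difference was -0.43 ± 0.48 percentage points. There it was 0.60 ± 6.93 within Apoe+Cst7+ cells and -3.54 ± 1.16 within Apoe-Cst7- cells, in the latter lower with Ccl6 in 4 of 4 mice. The part of depth in these differences was not tested. Between Cxcl16 and Ccl9 the difference in all Trem2-positive cells was 0.48 ± 2.21 percentage points, and -1.35 ± 1.30 in that window. The classes differed in this. Within Apoe+Cst7+ cells Ccl9 was read more often with Cxcl16 in 4 of 4 mice. The difference there was 3.69 ± 0.77 percentage points over all depths and 5.32 ± 4.34 in the window (exact sign-flip p = 0.125 for each, adjusted p = 0.202). Within Apoe-Cst7- cells it was 0.63 ± 4.90 and -2.11 ± 3.41, with mice in both directions. Thinning each cell to 10000 reads left the shares over all Trem2-positive cells near their unthinned values, and so does not match the cells for depth. A cell with a read of a ligand had at least 9 reads of it. The thinned differences were 5.06 ± 1.47 percentage points for Cxcl16 by Ccl6 and 10.3 ± 1.8 for Ccl9 by Ccl6. In the Trem2-positive cells of a mouse, 18.7% to 22.4% had none of the 3 ligands, 39.4% to 41.9% had 1, 29.9% to 32.5% had 2 and 6.34% to 8.42% had all 3.

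**Figure D4:**
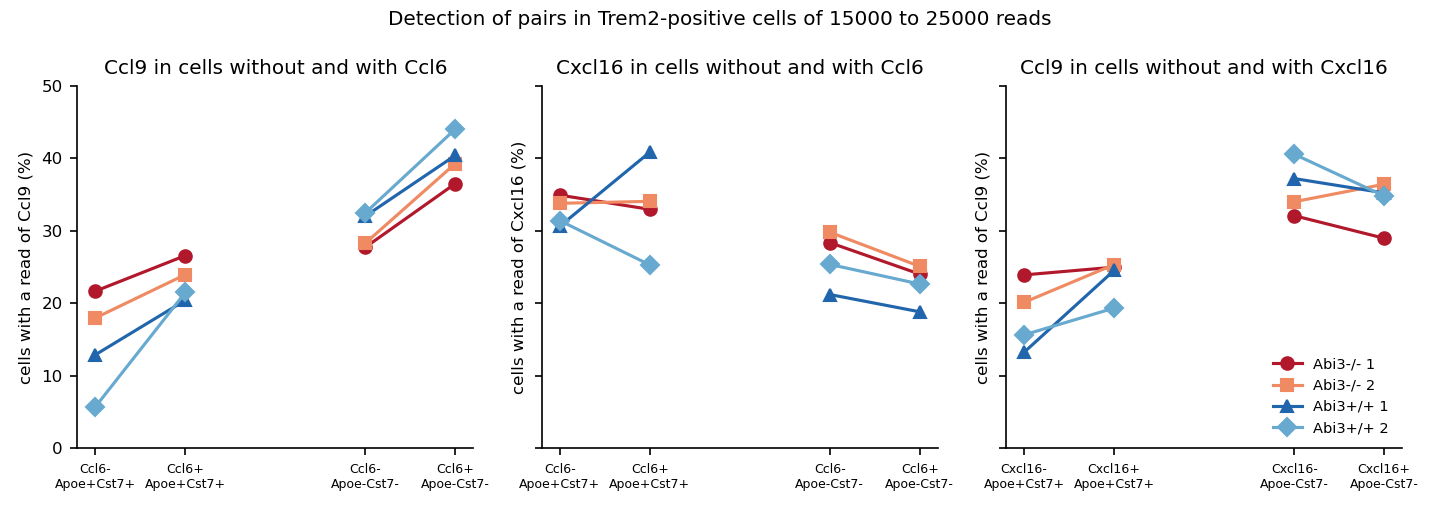
Share of cells with a read of 1 ligand (vertical axis, percent) in cells without and with a read of another, in Apoe+Cst7+ and Apoe-Cst7- cells of 15000 to 25000 reads, with 1 line per mouse. The share with Ccl9 is greater with Ccl6 in all 4 mice in both classes, by means of 8.56 and 9.94 percentage points, while that with Cxcl16 differs by 0.60 and -3.54.

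The same difference was computed for every other panel gene read in 5% to 95% of 5876 Trem2-positive cells in each mouse, 125 genes for each ligand, as a description with no test, in cells of 15000 to 25000 reads. For Ccl6, the largest difference was with Ccl9 (10.3 ± 1.3 percentage points, SD, n = 4), followed by Itgax (7.36 ± 6.20), the integrin CD11c, and Cst7 (5.90 ± 1.75). At the other end stood Tmem173, which encodes the adaptor STING, at -7.39 ± 2.33. For Ccl9, the largest differences were with Bin2 (10.4 ± 4.1), Tmem173 (10.3 ± 4.4), Ifngr1 (9.42 ± 8.17), a chain of the interferon gamma receptor, and Ccl6 (9.22 ± 1.60). Apoe (-8.68 ± 3.52) and Cst7 (-8.54 ± 5.18) stood lowest for it. Tmem173 and Cst7 thus stood at opposite ends for Ccl6 and Ccl9, which were nonetheless read together. For Cxcl16 the highest were Itgax (7.57 ± 3.55), Cd63 (6.74 ± 4.46), a tetraspanin of late endosomes, and Cst7 (5.80 ± 2.19), and the lowest was Egr1 (-6.46 ± 2.35), an immediate early gene.

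**Figure D5:**
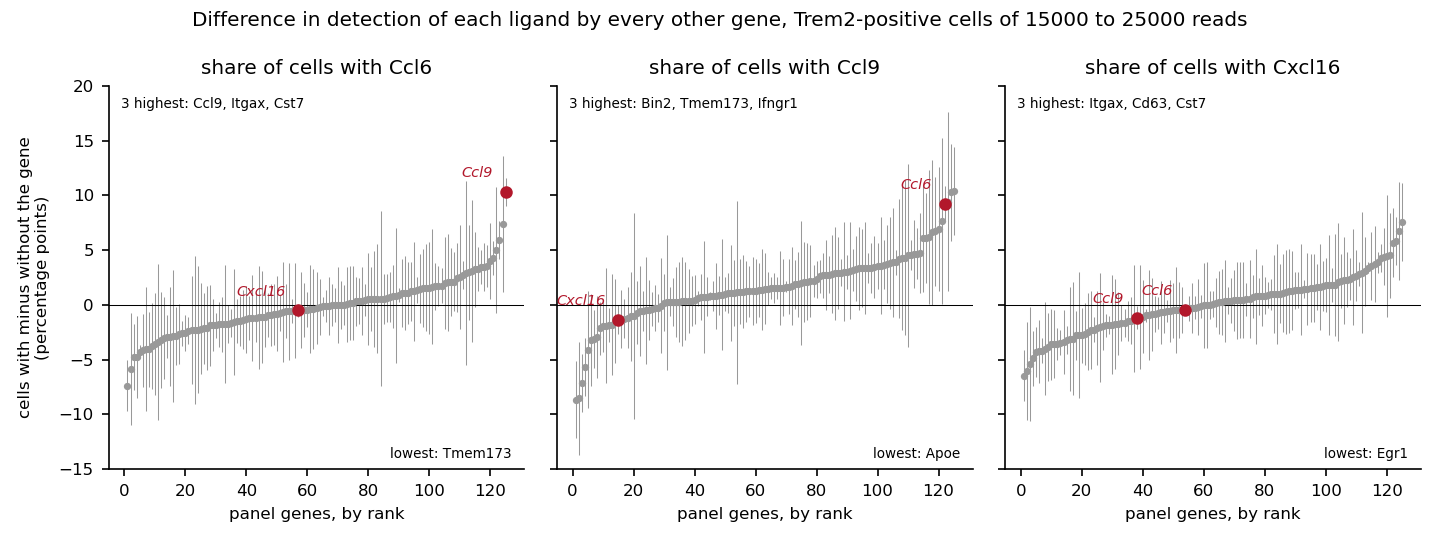
Difference in the share of cells with each ligand between cells with and without each of 125 other genes (vertical axis, percentage points, mean and SD over 4 mice), with genes ranked by that difference along the horizontal axis and the other 2 ligands in red. Ccl9 stands at the top for Ccl6 (10.3 percentage points) and Ccl6 is the fourth highest for Ccl9, while Cxcl16 lies near 0 for both.

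Across all classes, the genes whose log2 CPM was most like that of each ligand were found by Pearson's r over 28 sums, 7 classes in each of 4 mice, among 344 genes. For Ccl6 they were Ifitm2 (0.85), C3 (0.82), Ccr1 (0.81), Fcer1g (0.78) and Lyz2 (0.77). For Ccl9 they were Blnk (0.92), Tnfsf13b (0.91), H2-Ob (0.89), Cd74 (0.86) and H2-DMb2 (0.86). For Cxcl16 they were Tnfrsf13b (0.98), H2-DMa (0.97), Cd86 (0.97), Nrp1 (0.97) and Slc7a7 (0.96). These values are descriptions over sums that share libraries. Over the 16 sums of Trem2-positive cells alone, r was lower for all 15 of these pairs. For Ccl6 it was -0.45 with Ccr1 and 0.11 to 0.45 with the other 4 genes. For Ccl9 it was -0.65 with H2-Ob, -0.27 with Cd74 and 0.40 to 0.82 with the other 3, highest with Blnk. For Cxcl16 it was 0.47 with Nrp1 and -0.58 to -0.24 with the other 4. Ccl6 and Ccl9 had r of 0.28 over all sums and -0.19 over those of Trem2-positive cells, so sums per class and mouse did not show the pairing seen cell by cell.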

How the data were processed

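Targeted single-cell libraries of 4 mice were made with the BD Rhapsody Mouse Immune Response Panel, after cold enzymatic digestion and removal of myelin, with no sort for a cell type. The authors ran the BD Rhapsody Targeted Analysis Pipeline with default settings and deposited a table of read counts per cell and gene for each mouse, adjusted for errors in the molecular identifiers, so the counts are reads and not molecules. The build is mm10 per the submitters' processing notes.

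Cells with 40 or more genes and at most 59300 reads were kept. The upper limit is the study's. No doublet caller was run. Macrophages needed 2 of Ccr2, Clec10a, F13a1 and Cd163, neutrophils 3 of S100a8, S100a9, Mmp9, Cxcr2, Clec4d and Trem1, T cells 2 of Cd3d, Cd3e, Cd3g, Trac, Trbc1 and Trbc2, and B cells 2 of 4 B cell markers, where a marker counted from 1 read. Other cells with a Trem2 read were split by reads of Apoe and Cst7. Reads were summed per mouse and class with 5 or more cells and tested over all panel genes by edgeR 4.0.16 (quasi-likelihood test, TMM, low-count filter, Benjamini-Hochberg adjustment, threshold 0.05) in R 4.3.3, with the mouse in the model for comparisons of classes. Trem2-positive cells, macrophages, neutrophils and T cells were fitted in the same model, so each comparison among them took its spread from the sums of all these classes. Scripts were tested on simulated data. Shares of cells were compared over mice by exact permutation or sign-flip tests (scipy 1.17.1). Intervals are exact binomial at 95%, and a count of 0 was given the limit of 3 counts. Both cover counting error only. Separate mice are the replicates, 2 per genotype.

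The text names the 3 ligands, their receptors Ccr1 and Cxcr6, genes of a chemokine list that passed the threshold, the 5 genes most like each ligand (log2 CPM, prior count of 2), and genes at the ends of the ranking by detection, which were chosen after their values were seen. Some genes are not reported here. Members and lists were chosen with earlier results of these data known. Alternatives were library size without TMM, DESeq2 1.42.0, no cell filter, cells thinned to 10000 reads, other gates, each mouse left out, the replicate block and, chosen after seeing the data, cells of 15000 to 25000 reads and only mice with 10 or more neutrophils.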

Additional observations from a re-analysis of the deposited data

Results flagged for a closer look

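Reads of the 3 ligands were also present in cells that the comparisons did not use. Of 5674 cells with fewer than 40 genes, at a median of 2399.5 reads, 5.09% had Ccl6, 1.27% had Ccl9 and 2.03% had Cxcl16, where a count of 0 would allow 0.0529%. Trem2 was read in 21.5% of these cells. Of 1678 cells above the upper read limit, at a median of 87194 reads, 89.7% had Ccl6, 31.8% had Ccl9 and 67.998% had Cxcl16, where a count of 0 would allow 0.179%. Trem2 was read in 92.9% of them. The part of depth and of joined cells in these shares was not tested.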

How the results depend on the processing

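Of 326 values recomputed under alternatives, 269 kept their direction and their side of the threshold or, for a difference in share, stayed within 1 SD between mice, or, for a count of genes, within 1.5 times. Of the others, 17 changed sign, 10 no longer passed, 7 newly passed and 23 moved further than that. Ccl6 and Cxcl16 were higher in Apoe+Cst7+ than in Apoe-Cst7- cells, and passed, under every alternative run. With library size alone, the log2 fold change was -0.20 for Ccl6 by genotype, -0.97 for Ccl9 between these classes, 0.28 for Cxcl16 in macrophages, -4.43 for Ccl9 in T cells (no longer passing) and 0.022 for the genotype difference in the class fold change of Ccl6, for which comparison 2 genes passed. The genes that passed between the classes were then 48 higher and 125 lower, against 76 and 73. With DESeq2 it was -0.027 for Ccl6 by genotype, 0.43 for Cxcl16 in macrophages, 3.29 for Ccl6 and -3.60 for Ccl9 in neutrophils and 1.12 for the genotype difference in the class fold change of Ccl9. DESeq2 called 8 genes by genotype, 117 in macrophages and 27 for the difference between genotypes. Without the cell filter, Ccl6 was -0.18 and Ccl9 0.033 by genotype, Ccl6 was -0.30 in macrophages and Ccl9 was -4.85 in neutrophils, and the differences in share were 22.4 (Ccl6) and 26.9 (Cxcl16) percentage points between classes and -2.28 (Ccl9) between genotypes. In thinned cells Ccl6 was -0.043 by genotype. In cells of 15000 to 25000 reads the differences in share were 8.70 (Ccl6) and 8.62 (Cxcl16) between classes, -5.18 (Ccl9) between genotypes and -0.427 for Cxcl16 by Ccl6, and 98 genes passed between classes. Macrophages by 3 or more markers gave 41 genes. Without cells with a Trem2 read, Ccl6 in neutrophils was 2.43, and over all alternatives it was 1.41 (no cell filter) to 3.29 (DESeq2). With only mice of 10 or more neutrophils, Cxcl16 was -6.01 and 1 gene passed. The cause of these changes was not tested.

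With each mouse left out in turn, Ccl6 by genotype was -0.24 to 0.16, with 0 to 2 genes called. Between classes, Ccl9 was -0.74 to -0.17. In macrophages Cxcl16 was -0.59 to 0.29 and 27 to 47 genes passed, in neutrophils Cxcl16 was -17.18 to -6.38 and 41 to 131 genes passed, and in T cells Ccl9 was -5.49 to -4.74 and Cxcl16 -5.47 to -4.28. The genotype difference in the class fold change of Ccl6 was -0.38 to 0.089, with 0 to 8 genes called. Where 1 mouse was left in a genotype, its spread was taken from the other mice.

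Same-numbered mice of the genotypes shared only a number (correlation of deviations 0.163 over 328 genes). With the replicate block, Ccl6 by genotype was -0.014, and the block called 0 genes. Without the mouse in the model (no replicate block), 99 genes passed between classes and Ccl9 in T cells was -3.79 and no longer passed.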
